A study of Mus musculus with 4 samples.

Results

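The genes described here are 10 myeloid receptor, adaptor and phagocyte signalling genes, 10 of the 22690 genes in the deposited table: Itgam, Ptprc, Fcgr3, Il10ra, Fcer1g, Tyrobp, Inpp5d, Nckap1l, Ncf1 and Laptm5. They were chosen by name, with the results of this comparison known, and they were selected on being lower in GFP-positive than in GFP-negative cells. The values of the 10 genes are therefore a description, and no p computed here is given for them.

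RNA was sequenced from flow-sorted retinal cells with a 4N DNA content, that of a cell between DNA replication and division. All cells came from C57BL/6 mice at postnatal day 2. The GFP-positive cells are labelled Casz1 cKO, a conditional knockout of the zinc finger transcription factor Casz1, and the GFP-negative cells they were set against are labelled wild type, with 2 libraries in each group. The GFP gate and the genotype change together between the groups, so they cannot be told apart. What carries GFP, what drives the recombination and the number of animals per library are, in the sources used here, not given. The design text speaks of separate experiments but ties no library to animals, so a p-value measures the spread between these libraries only.

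Myeloid cells include macrophages, neutrophils, mast cells and the resident macrophages of nervous tissue, the microglia, which arise from yolk sac progenitors that enter the nervous system early. Their activating receptors often have no signalling tail of their own and pair with small adaptors such as Fcer1g and Tyrobp, whose ITAM tyrosines recruit Src-family and Syk kinases. Those kinases drive phagocytosis, actin remodelling and the oxidase burst, and lipid phosphatases such as Inpp5d limit them. In the developing retina microglia are known for clearing dying cells.

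Total reads in genes were 22326119 and 89473701 in cKO libraries A and B, against 75832360 in wild-type library A and 83753377 in wild-type library B, where A and B stand for the 2 tags in the column names. cKO library A stands apart from the other libraries. Its log2 values correlated with theirs across genes at r = 0.90 to 0.92, and those of the others with one another at 0.99. It listed 9179 genes at 0, against 5793 to 6169 in the others. Normalized read counts are reads divided by one size factor per library, so 3 reads, the limit that a count of 0 allows, stand for 8.38 normalized counts in cKO library A and for 1.98 to 2.28 in the others. These limits and the intervals given with low counts cover counting error only. Results are given for each cKO library alone, because the 2 differ more from each other than the wild-type libraries do. Casz1, counted over the whole gene, had 8687 and 10772 normalized counts in cKO libraries A and B, against 13162 and 11995 in wild-type libraries A and B, and reads outside a deleted part would be included.

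All 10 genes were lower in both cKO libraries than in both wild-type libraries, and among all 14480 genes tested 22.3% were. In cKO library B every one of the 10 stood at 27.4% to 45.5% of its wild-type mean, with a median of 39.3%. In cKO library A the 10 stood at 0% to 11.8%, and Ptprc, Nckap1l, Ncf1 and Il10ra had no read. A level at or under 50% of the wild-type mean was found for 10 of 10 members in each cKO library, and for 18.4% of all genes tested in cKO library A and 2.44% in library B. The choice of the members used this contrast, so nothing is read from these counts. In bulk samples, fewer cells of a type and less RNA per cell cannot be told apart.

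No gene passed the test across all genes: limma with Benjamini-Hochberg adjustment called 0 of 14480 (0%), with 274 at an unadjusted p under 0.05. On reads recovered from the table edgeR made 0 calls and had 208 genes at an unadjusted p under 0.05. DESeq2 made 2 calls and had 397 genes at that unadjusted level. None of the 10 members was among the calls of these tools. Of the 10 members, 8 had in the authors' deposited table an adjusted p under 0.05, and 0.292% of the genes with a value there did. That p ranged from 0.000319 for Laptm5 to 0.634 for Fcer1g in the authors' deposited table. The choice of the members used this same comparison, so nothing is read from how many of them have a low p there.

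**Figure D1:**
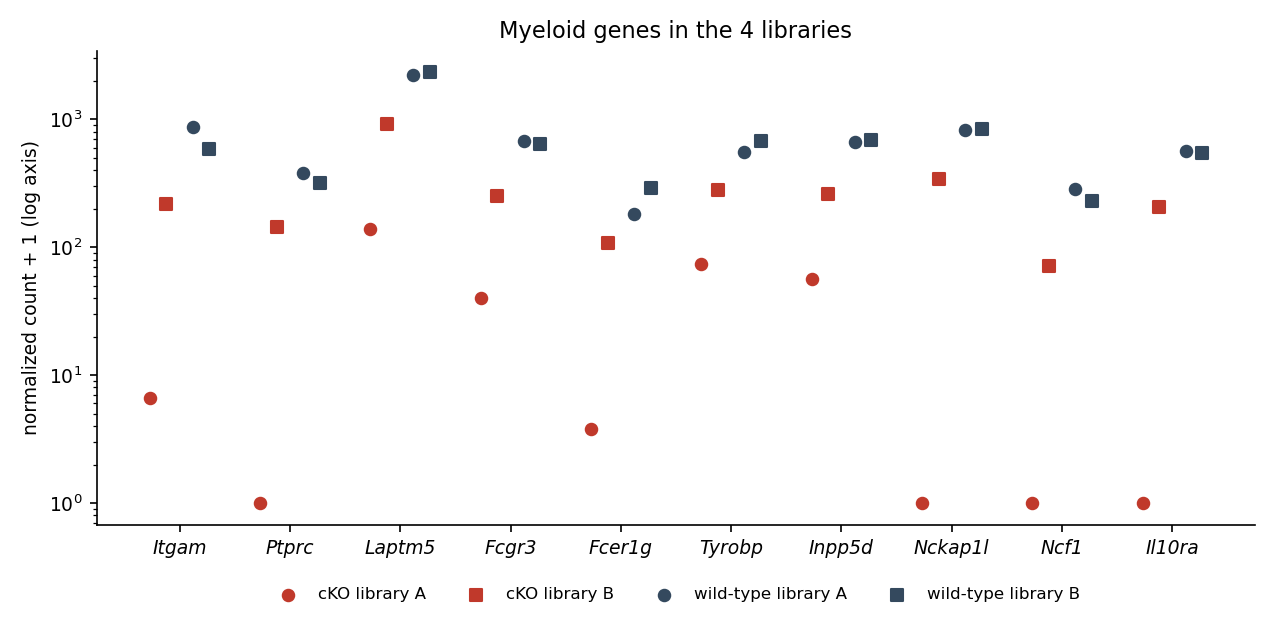
Normalized read count plus 1 (log axis) of each of the 10 genes in cKO libraries A and B (red circle and square) and in wild-type libraries A and B (dark circle and square). For every gene both cKO points lie under both wild-type points, and 4 genes have no read in cKO library A.

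Promoter sequences are shown as a description of the genes. That the 10 were lower together is how they were chosen, and a shared cause through their promoters was not tested. RefSeq promoter windows on GRCm38.p6, from upstream of the start to just after it, matched 7 of the 10 genes, and Tyrobp, Nckap1l and Il10ra had no entry. The 3 short motifs searched on both strands were GAGGAA, which reads TTCCTC on the other strand, the purine-rich core bound by the myeloid regulator Spi1, GGAAGT, read as ACTTCC, a core of the wider ETS family, and TATAAA, read as TTTATA, the TATA box. The first 2 overlap where GAGGAAGT occurs. GAGGAA was found in 5 of the 7 genes and in 31.3% of all 27025 genes with a window. GGAAGT was found in 3 of the 7 and in 26.5% of all genes, and TATAAA in 2 of the 7 and in 15.7%. The 5 genes with GAGGAA follow, with capitals marking every match of the 3 motifs. A match is a run of letters and no measure of binding.
Itgam, chr7:128062390-128062689, plus strand: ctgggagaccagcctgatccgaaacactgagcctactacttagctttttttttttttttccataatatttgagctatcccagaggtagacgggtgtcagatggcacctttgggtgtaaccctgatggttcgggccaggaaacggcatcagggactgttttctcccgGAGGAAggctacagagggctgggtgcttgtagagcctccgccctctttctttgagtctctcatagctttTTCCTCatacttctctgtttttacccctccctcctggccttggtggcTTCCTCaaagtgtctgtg
Laptm5, chr4:130913066-130913365, plus strand: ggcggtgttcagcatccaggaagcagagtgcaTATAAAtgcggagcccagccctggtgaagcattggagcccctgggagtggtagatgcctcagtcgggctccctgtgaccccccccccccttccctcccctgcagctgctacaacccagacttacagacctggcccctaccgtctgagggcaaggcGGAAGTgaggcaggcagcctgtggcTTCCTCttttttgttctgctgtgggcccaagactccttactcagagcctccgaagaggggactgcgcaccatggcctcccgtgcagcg
Fcgr3, chr1:171059354-171059653, minus strand: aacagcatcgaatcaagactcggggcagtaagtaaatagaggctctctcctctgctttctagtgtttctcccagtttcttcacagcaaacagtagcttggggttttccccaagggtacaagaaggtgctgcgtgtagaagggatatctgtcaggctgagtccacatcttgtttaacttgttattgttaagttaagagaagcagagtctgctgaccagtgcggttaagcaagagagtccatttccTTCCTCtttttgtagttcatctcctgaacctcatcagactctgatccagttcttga
Inpp5d, chr1:87620062-87620361, plus strand: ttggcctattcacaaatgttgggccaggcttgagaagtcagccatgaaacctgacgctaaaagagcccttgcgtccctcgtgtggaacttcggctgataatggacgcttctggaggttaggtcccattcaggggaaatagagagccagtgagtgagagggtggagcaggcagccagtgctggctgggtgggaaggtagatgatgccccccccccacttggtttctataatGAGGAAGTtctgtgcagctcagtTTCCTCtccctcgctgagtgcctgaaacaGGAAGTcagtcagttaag
Ptprc, chr1:138175256-138175555, minus strand: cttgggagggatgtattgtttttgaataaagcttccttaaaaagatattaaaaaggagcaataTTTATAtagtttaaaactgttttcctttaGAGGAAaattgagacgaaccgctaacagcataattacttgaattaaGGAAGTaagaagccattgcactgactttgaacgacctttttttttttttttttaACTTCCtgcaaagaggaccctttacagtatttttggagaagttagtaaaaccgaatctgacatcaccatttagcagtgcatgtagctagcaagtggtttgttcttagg

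In the Itgam window GAGGAA or its reverse complement occurs at −84, −15 and 33 from the start, counted to the first base of the match. Each start is that of the RefSeq window. For Fcgr3, Laptm5 and Ptprc it lies inside the gene span given below, so these positions are not distances from the gene's end. In Inpp5d it lies at −20, where it runs on into GGAAGT at −18, and again at 4. Laptm5 and Fcgr3 hold 1 match each on the opposite strand, at −38 and −6, and the second Fcgr3 window places the same letters at −15. Ptprc differs from these in that its match lies at −158, and its second, downstream window holds none. In the windows of Fcer1g and Ncf1 none of the 3 motifs was found.

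The receptors come first. Itgam (ENSMUSG00000030786, chromosome 7, 128062640 to 128118491 of GRCm38, plus strand) encodes CD11b, the alpha chain of complement receptor 3. Its exons overlap those of Gm49368, a protein-coding gene on the same strand that is not in the table used here, so reads of the 2 genes may not be told apart. Its normalized counts were 5.59 and 217 in cKO libraries A and B, against 866 and 589 in wild-type libraries A and B. The groups did not overlap, and the wild-type libraries also differed from each other by more for Itgam than for Fcgr3, Il10ra or Nckap1l. cKO library B held 29.8% of the wild-type mean. The value of cKO library A rests on 2 reads, 0.768% of the wild-type mean with an exact Poisson 95% interval of 0.0930% to 2.77%. The log2 fold change, a difference of group means of log2(normalized count + 1), was −4.24 ± 1.57 (SE, n = 2 each). Every SE given with a fold change is the moderated SE of limma, whose variance is drawn toward that of all genes. For the members given with one it is smaller than the SE of the gene's own values, so it understates the spread between the cKO libraries.

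Ptprc (ENSMUSG00000026395, chromosome 1, 138062861 to 138175708, minus strand) encodes CD45, the receptor tyrosine phosphatase carried by nucleated blood cells in general. It had no read in cKO library A and 142 normalized counts in cKO library B, against 377 and 315 in wild-type libraries A and B. Both cKO values lay under both wild-type values: cKO library A was at least 41.3-fold lower than the wild-type mean, computed from 3 reads in that library, and cKO library B held 41.1% of it. Fold changes of genes with no read depend on the added 1 and are left out here for that reason.

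Fcgr3 (ENSMUSG00000059498, chromosome 1, 171051174 to 171064935, minus strand) encodes the low-affinity activating receptor for IgG, which signals through the Fcer1g chain. Its normalized counts were 39.1 and 249 in cKO libraries A and B, against 671 and 639 in wild-type libraries A and B. The wild-type pair was close, and the cKO libraries held 5.97% and 37.9% of its mean. The log2 fold change was −2.71 ± 0.85 (SE, n = 2 each). Fcgr3 and its neighbour Fcgr2b, the inhibitory IgG receptor, have closely related outer domains, so the counting may have split reads between them and both values are uncertain. Fcgr2b, named for that reason after its values were seen, had 0 and 44.3 normalized counts in cKO libraries A and B, against 117 and 129 in wild-type libraries A and B.

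Il10ra (ENSMUSG00000032089, chromosome 9, 45253837 to 45269149, minus strand) encodes the ligand-binding chain of the receptor for the anti-inflammatory cytokine interleukin 10. It had no read in cKO library A and 206 normalized counts in cKO library B, against 562 and 540 in wild-type libraries A and B. It was at least 65.7-fold lower in cKO library A than the wild-type mean and stood at 37.3% of it in cKO library B. Its partner chain Il10rb, which other cytokine receptors share, had 86.6 and 200 normalized counts in cKO libraries A and B, against 204 and 270 in wild-type libraries A and B. cKO library B thus held 84.5% of the wild-type mean for Il10rb, and cKO library A 36.5%.

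The adaptors were the members with the highest percentages in cKO library B. Fcer1g (ENSMUSG00000058715, chromosome 1, 171229572 to 171234365, minus strand) encodes the common gamma chain of Fc receptors. Its normalized counts were 2.79 and 107 in cKO libraries A and B, against 181 and 290 in wild-type libraries A and B. Among the 10 genes it had the widest wild-type spread relative to its mean, 235 ± 77.2 normalized counts (SD, n = 2), and cKO library B held 45.5% of that mean. The value of cKO library A is a single read, 1.19% of the wild-type mean with an interval of 0.0301% to 6.62%.

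Tyrobp (ENSMUSG00000030579, chromosome 7, 30413760 to 30417585, plus strand) encodes DAP12, the adaptor of Trem2 and other activating receptors. It had 72.6 and 280 normalized counts in cKO libraries A and B, against 552 and 677 in wild-type libraries A and B. cKO library A held 11.8% of the wild-type mean and cKO library B 45.5%. The 11.8% is the highest share among the 10 in cKO library A, and the log2 fold change of −2.09 ± 0.65 (SE, n = 2 each) is the smallest in size. Hcst, a related adaptor gene that lies 126 bases away on the opposite strand and was named for that position, had 0 and 2.64 normalized counts in cKO libraries A and B, against 3.04 and 8.97 in wild-type libraries A and B.

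The signalling and phagocyte genes follow. Inpp5d (ENSMUSG00000026288, chromosome 1, 87620312 to 87720507, plus strand) encodes SHIP1, the inositol 5-phosphatase that counters PI3-kinase in blood cells. Its normalized counts were 55.9 and 257 in cKO libraries A and B, against 658 and 693 in wild-type libraries A and B. The cKO libraries held 8.27% and 38.1% of the wild-type mean, and the log2 fold change was −2.48 ± 0.72 (SE, n = 2 each).

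Nckap1l (ENSMUSG00000022488, chromosome 15, 103453794 to 103498810, plus strand) encodes HEM1, the blood-cell subunit of the WAVE complex that drives branched actin assembly. It had no read in cKO library A and 338 normalized counts in cKO library B, against 828 and 843 in wild-type libraries A and B. It was the most tightly measured of the 10 in wild type, at 835 ± 10.8 normalized counts (SD, n = 2). cKO library A was at least 99.6-fold lower than that mean, the largest of the 4 such bounds, and cKO library B held 40.5% of it.

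Ncf1 (ENSMUSG00000015950, chromosome 5, 134220053 to 134229625, minus strand) encodes p47phox, the organizing subunit of the phagocyte NADPH oxidase. It had no read in cKO library A and 70.1 normalized counts in cKO library B, against 282 and 228 in wild-type libraries A and B. With 27.4% it had the lowest share of the wild-type mean among the 10 in cKO library B, and in cKO library A it was at least 30.5-fold lower. Its exons overlap those of Gtf2ird2 on the opposite strand, a transcription factor gene with 1579 and 2001 normalized counts in cKO libraries A and B, against 2461 and 2048 in wild-type libraries A and B. A stranded kit was used, but the sources used here do not state if the counting was by strand, so the level of Ncf1 is uncertain. In cKO library A, where Gtf2ird2 had 1579 normalized counts, Ncf1 had none.

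Laptm5 (ENSMUSG00000028581, chromosome 4, 130913125 to 130936141, plus strand) encodes a lysosomal membrane protein of blood cells that lowers receptor levels at the surface. It was the most abundant member by read count in every library, with 137 and 920 normalized counts in cKO libraries A and B, against 2206 and 2326 in wild-type libraries A and B. Its 49 reads in cKO library A were the most of any member there. The cKO libraries held 6.04% and 40.6% of the wild-type mean, and the log2 fold change was −2.67 ± 0.85 (SE, n = 2 each).

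Per kilobase of exon the order of the levels was different. Tyrobp was highest in wild-type cells, at 828 and 1015 normalized counts per kb in libraries A and B, followed by Laptm5 at 582 and 614. Fcgr3 came next with 387 and 368, and then Fcer1g with 207 and 332. The libraries of each of these neighbours did not overlap with those of the next. Il10ra, Itgam and Nckap1l had mean levels of 157, 145 and 141 per kb, and the 117 to 172 per kb of the Itgam libraries spanned both others, so Itgam cannot be ordered against either. Inpp5d at 88.9, Ncf1 at 69.7 and Ptprc at 18.9 per kb closed the order. Ptprc has 13 annotated transcripts whose exons join to 18313 bases, and over its longest transcript of 5740 bases it reached 60.3 per kb. With longest transcripts it stayed the lowest, and the mean of Nckap1l, 167 per kb, lay above that of Il10ra, while the Itgam libraries at 126 and 185 per kb spanned both. Among all genes tested the wild-type means of the 10 lay between the percentiles 21.2 and 56.1, which are not corrected for length.

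The proportions of the 10 genes to one another in cKO library B were closer to those of wild-type library B than of wild-type library A. Their summed normalized counts were 313 and 2785 in cKO libraries A and B, against 7183 and 7140 in wild-type libraries A and B, so cKO library B held 38.9% of the wild-type mean and cKO library A 4.37%. Laptm5 made up 43.8% and 33.0% of that sum in cKO libraries A and B, against 30.7% and 32.6% in wild-type libraries A and B. Nckap1l made up 0% and 12.1% in the cKO libraries, against 11.5% and 11.8% in the wild-type libraries. The share of the sum that lay with different members was 2.03% for cKO library B set against wild-type library B, 6.69% for cKO library B set against wild-type library A, and 6.03% for the wild-type libraries set against each other. For cKO library A set against the wild-type libraries it was 36.6% to 40.4%.

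**Figure D2:**
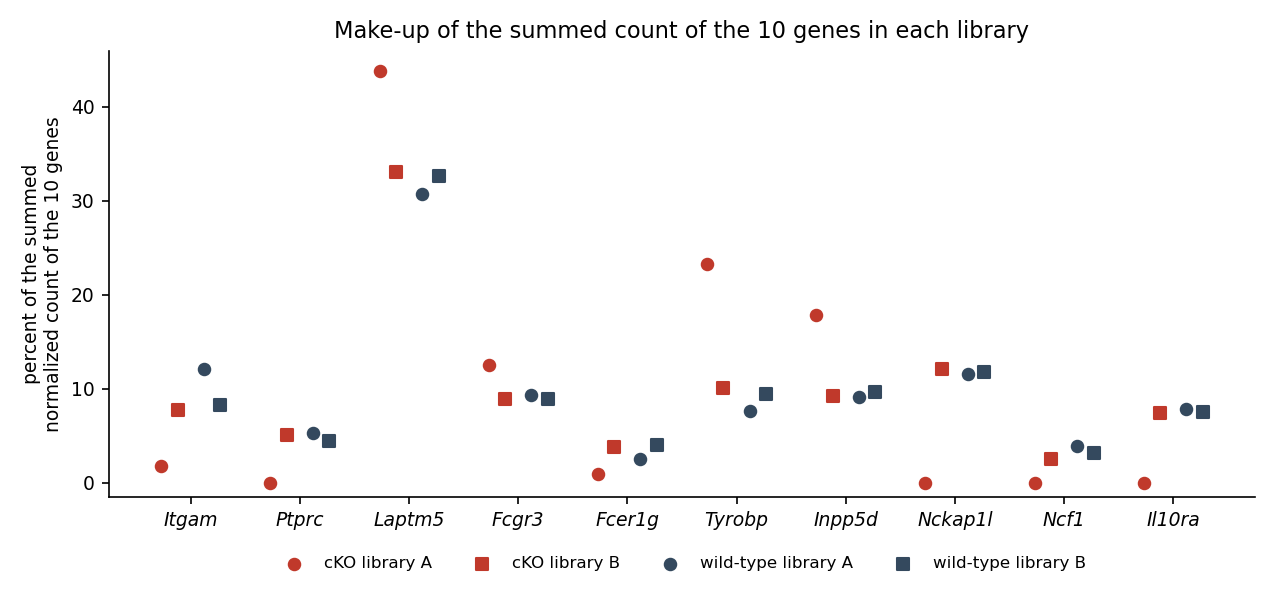
Share of each gene in the summed normalized count of the 10 genes, in percent, in cKO libraries A and B (red circle and square) and wild-type libraries A and B (dark circle and square). The squares of cKO library B lie within 4.27 percentage points of both wild-type libraries for every gene, and cKO library A is higher for Laptm5, Tyrobp, Inpp5d and Fcgr3.

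In cKO library A the make-up was uneven. Laptm5, Tyrobp, Inpp5d and Fcgr3 had 49, 26, 20 and 14 reads there, Itgam had 2, Fcer1g had 1 and the other 4 had none, although Nckap1l exceeded Tyrobp, Inpp5d and Fcgr3 in both wild-type libraries. The whole set rests on 112 reads in cKO library A, against 4213 in cKO library B and 9461 and 10345 in wild-type libraries A and B. Of the other 5041 genes with a wild-type mean in the members' range, 235 to 2266 normalized counts, 51 (1.01%) had no read in cKO library A, and 65 (1.29%) stood at or under 50% of the wild-type mean in cKO library B.

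The label of the set was set beside marker lists for blood-derived and retinal cells. All 12 homeostatic microglia markers had lower means in cKO, without overlap, which 22.3% of all genes tested had, and their summed level was 2649 and 8308 normalized counts in cKO libraries A and B, against 18421 and 16853 in wild-type libraries A and B. In cKO library B the median was 39.3% of the wild-type mean for the 10 members and 43.2% for the microglia markers. That difference was not tested. Csf1r, the receptor for the growth factor of macrophages, had 346 and 2293 normalized counts in cKO libraries A and B, against 6021 and 4788 in wild-type libraries A and B. Cx3cr1, the fractalkine receptor, had 97.8 and 558 normalized counts in cKO, against 2011 and 1432 in wild type. The part of microglial RNA in the members' values was not tested.

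The other blood-cell lists, the monocyte list apart, held little RNA. Mast cells carry Fcer1g as macrophages do, and all 5 mast cell markers were at 0 in all 4 libraries. The 8 neutrophil markers summed to 0 and 5.95 normalized counts in cKO libraries A and B, against 15.9 and 9.66 in wild-type libraries A and B, with S100a8 and S100a9, alarmins of granulocytes, under 8 in every library. The 12 lymphocyte markers summed to 50.3 and 184 in cKO, against 240 and 273 in wild type, most of it Cd4 and Cd8a, while Cd3g and Ncr1 were at 0 in all libraries. The border macrophage list summed to 41.9 and 563 in cKO, against 1042 and 999 in wild type, nearly all of it Stab1, a scavenger receptor also found on endothelium, and Cd163 and Cbr2 were at 0 throughout. The 6 erythroid markers summed to 0 and 47.6 in cKO, against 97.2 and 16.6 in wild type. The 6 monocyte markers summed to 29139 and 16825 in cKO, against 19984 and 15435 in wild type, nearly all of it Fn1. Of the 6 markers 2 reached a mean of 10, Fn1 and Vcan, which other cells make as well. Ccr2 had 0 and 1.98 in cKO, against 0 and 2.76 in wild type.

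Lists of retinal cells and of cycling cells were summed in the same way. The 8 progenitor markers summed to 147% and 112% of the wild-type mean in cKO libraries A and B, and the 6 cell cycle markers to 108% and 114%. Ccnd1 makes up most of the progenitor sum in every library, and it stood at 169% and 110% in cKO libraries A and B. The median of the 8 progenitor markers was 140% and 109%. Single members of these lists went apart in cKO library A: Mki67, a marker of cycling cells, stood at 42.2% of the wild-type mean there and the other 5 cell cycle markers at 123% to 161%, and Pax6, a progenitor transcription factor, stood at 63.7%. Photoreceptor markers summed to 61.3% and 74.8% in cKO libraries A and B, ganglion and amacrine cell markers to 99.0% and 92.9%. Tfap2b makes up most of the ganglion and amacrine sum, and the median of that list was 80.5% and 113%. Endothelial markers summed to 120% and 96.3%, but Kdr, which retinal progenitors also express, makes up nearly all of that sum. Of the 8 endothelial genes 5 had no read in cKO library A (Pecam1, Cdh5, Tek, Tie1 and Emcn), beside 9179 of all 22690 genes. The 5 endothelial genes that were tested had a median of 58.9% of the wild-type mean in cKO library B. Pecam1, an adhesion molecule that blood cells carry too, had 0 and 42.3 normalized counts in cKO, against 84.3 and 59.4 in wild type. The part of these cell types in the members' values was not tested.

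Genes that act around the 10 were taken from 9 lists, which were also drawn up with earlier results of these data known. Of their genes 99 reached the mean of 10 normalized counts and are no members. These 99 include Laptm4a, Laptm4b and Il10rb, which are counted again among the relatives below. By limma with Benjamini-Hochberg adjustment 0 of the 99 passed in either direction, 17 had an unadjusted p under 0.05, and edgeR and DESeq2 also called 0. Fold changes were below 0 for 83 of the 99, 77 of them without overlap between the groups, and the median log2 fold change of the 99 was −1.85. Over all 14480 genes tested 7711 were below 0 and 274 had an unadjusted limma p under 0.05. Among all genes tested 22.3% were lower without overlap and the median log2 fold change was −0.03. In cKO library B the median of the 99 was 53.9% of the wild-type mean, beside 98.8% over all genes tested. Because the lists were drawn up with earlier results known, nothing is read from these counts.

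The list of ITAM receptors and partners also holds inhibitory relatives that signal through ITIM motifs, among them Fcgr2b, Cd300a and Lilrb4. All 9 genes tested had negative fold changes, with a median of 43.3% of the wild-type mean in cKO library B. In cKO library A 7 of the 9 had no read, beside 1074 of the 14480 genes tested. For these 7 the limit of 3 reads stands for 2.15% (Siglech) to 33.2% (Lilrb4) of the wild-type mean. Trem2, a lipid-sensing receptor that signals through Tyrobp, had 16.8 and 205 normalized counts in cKO libraries A and B, against 441 and 452 in wild-type libraries A and B. Siglech, a sialic acid receptor that also pairs with Tyrobp and is on the microglia list too, had 0 and 175 in cKO, against 417 and 364 in wild type. Fcgr1, the high-affinity IgG receptor, had 2.79 and 83.3 in cKO, against 200 and 185 in wild type, and Cd300a, an inhibitory receptor, had 0 and 112 in cKO, against 159 and 222 in wild type.

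The kinases below the receptors covered a wider range. Of 13 ITAM kinases and substrates 11 had negative fold changes, with a median of 52.6% of the wild-type mean in cKO library B. Src and Fyn, kinases found in most cells, stood at 97.1% and 110% there. Syk, the tandem SH2 kinase that binds phosphorylated ITAMs, had 327 and 372 normalized counts in cKO libraries A and B, against 476 and 509 in wild-type libraries A and B, and Pik3cd, a PI3-kinase catalytic subunit of leukocytes, had 198 and 381 in cKO, against 406 and 450 in wild type. Vav1, a blood-cell exchange factor for Rac named after its values were seen, had 0 and 108 in cKO, against 276 and 320 in wild type.

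Of the 9 genes of the beta2 integrin list 7 had negative fold changes, with a median of 53.9% in cKO library B. Itgb2, the beta chain that pairs with Itgam and was named for that role, had 0 and 92.6 normalized counts in cKO libraries A and B, against 207 and 180 in wild-type libraries A and B, so cKO library B held 29.8% of the wild-type mean for Itgam and 47.9% for Itgb2. Itgb1, the beta chain of many tissues, stood at 104% in cKO library B, Rap1b at 108% and Tln1, which activates integrins from inside, at 88.4%. Icam1, a ligand of the beta2 integrins, had 0 and 227 in cKO, against 361 and 550 in wild type.

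Of 7 oxidase genes 5 had negative fold changes, with a median of 51.7% in cKO library B. Rac2, the blood-cell Rac, had 0 and 96.5 normalized counts in cKO libraries A and B, against 183 and 190 in wild-type libraries A and B, while Rac1, its ubiquitous relative, had 28323 and 19309 in cKO, against 17255 and 18316 in wild type. Cyba, the small subunit of the oxidase membrane core, stood at 93.3% of the wild-type mean in cKO library B. Cybb, its large partner and named for that role, was low everywhere, at 0 and 8.59 in cKO, against 24.3 and 39.3 in wild type.

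Of 12 actin regulators 11 had negative fold changes, with a median of 57.1% in cKO library B. Lcp1, the leukocyte plastin, had 123 and 502 normalized counts in cKO libraries A and B, against 751 and 1075 in wild-type libraries A and B, and Coro1a, a coronin of blood cells, stood at 69.5% in cKO library B. Pfn1, the general profilin, stood at 104% there and Elmo1 at 82.4%. Of 9 inhibitory receptors and phosphatases 8 had negative fold changes, with a median of 72.1% and a range of 31.8% to 105%. By highest mean, these were Sirpa, which binds CD47, at 74.0%, Inpp5b at 88.3%, the collagen receptor Lair1 at 69.4% and Dok1 at 105%. The list's lowest, named after their values were seen, were the sialic acid receptor Cd33 at 31.8%, the SH2 phosphatase Ptpn6 at 46.4% and the adaptor Dok3 at 52.9%, all with no read in cKO library A.

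The cytokine list was nearest to the genes at large. Of 17 tested 12 had negative fold changes, with a median of 87.0% in cKO library B. The general signalling genes Tgfbr1, Jak1 and Socs3 stood at 96.1%, 97.0% and 118% there, against 42.4% for Csf1r, which is also a microglia marker. Of 12 leukocyte membrane proteins 11 had negative fold changes, with a median of 52.2%. Ly86, a partner of a Toll-like receptor relative, had 0 and 413 normalized counts in cKO libraries A and B, against 629 and 834 in wild-type libraries A and B, and Cd68, a macrophage lysosomal protein, had 0 and 297 in cKO, against 424 and 460 in wild type.

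Of 11 myeloid transcription factors 9 had negative fold changes, with a median of 49.9% in cKO library B. Irf5 and Cebpa, which act in macrophages and the granulocyte and macrophage lineage, stood at 74.5% and 64.7%, and Cebpb at 93.6%. Spi1, the ETS factor whose core motif was sought in the promoters and which was named for that reason, is listed under its older symbol Sfpi1. It had 0 and 77.4 normalized counts in cKO libraries A and B, against 179 and 206 in wild-type libraries A and B, or 40.1% of the wild-type mean in cKO library B.

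**Figure D3:**
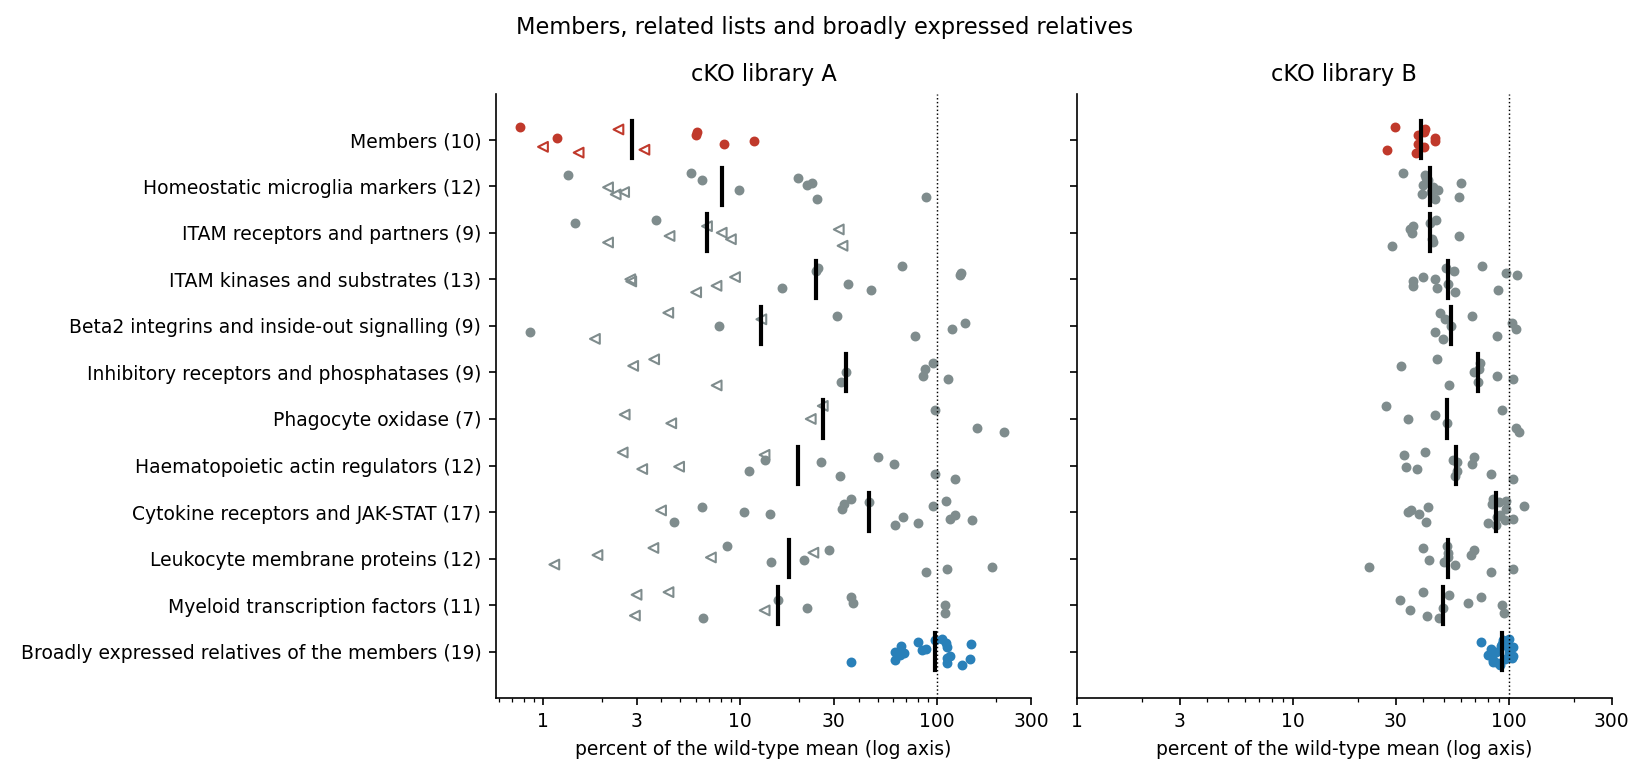
Level in cKO libraries A (left panel) and B (right panel) as a percent of the wild-type mean (log axis) for the 10 members (red), microglia markers and pathway lists (grey) and broadly expressed relatives (blue). Bars are medians, open triangles are genes with no read drawn at 3 reads, and the dotted line is the wild-type mean, beside which the members' median is 39.3% and that of the relatives 93.5% in cKO library B.

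Of the 10 members, 7 were set beside relatives listed as broadly expressed, 19 genes in all. How widely each of the 19 is expressed in other tissues was not tested. Fcgr3, Fcer1g and Tyrobp have none on this list. In cKO library B they stood at 74.1% to 105% of the wild-type mean with a median of 93.5%, and in cKO library A at a median of 97.6%, none of them at 0. Of the 19, 10 had negative and 9 positive fold changes, with a median log2 fold change of −0.06, and 0 passed limma with Benjamini-Hochberg adjustment, with 0 at an unadjusted p under 0.05 and 0 called by edgeR or DESeq2.

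Nckap1, the widely expressed counterpart of Nckap1l in the WAVE complex, had 17575 and 15873 normalized counts in cKO libraries A and B, against 14740 and 15607 in wild-type libraries A and B. Inppl1, which encodes SHIP2, had 5585 and 6706 in cKO, against 6837 and 6513 in wild type. Laptm4a had 15932 and 14761 in cKO, against 13818 and 14511 in wild type. Nckap1l, Inpp5d and Laptm5 were lower in both cKO libraries, while for these 3 relatives the groups overlapped (Inppl1) or both cKO values were higher (Nckap1 and Laptm4a).

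Among the other relatives in cKO library B, Inpp5e stood at 87.7%, Ocrl at 101% and Synj1 at 80.4% of the wild-type mean, all of them inositol 5-phosphatases like Inpp5d. Beside the 41.1% of Ptprc, the receptor phosphatases Ptpra, Ptprf and Ptprs stood at 95.7%, 93.5% and 91.8%. Beside the 29.8% of Itgam, the integrin alpha chains Itgav, Itga6 and Itga9 stood at 100.2%, 93.6% and 74.1%. Laptm4b stood at 83.3%. Beside the 27.4% of Ncf1, the p47phox-related scaffolds Sh3pxd2a, Sh3pxd2b and Noxo1 stood at 104%, 96.0% and 84.4%. The interferon receptor chains Ifnar1 and Ifnar2, of the same receptor class as Il10ra, stood at 89.7% and 91.3%.

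**Figure D4:**
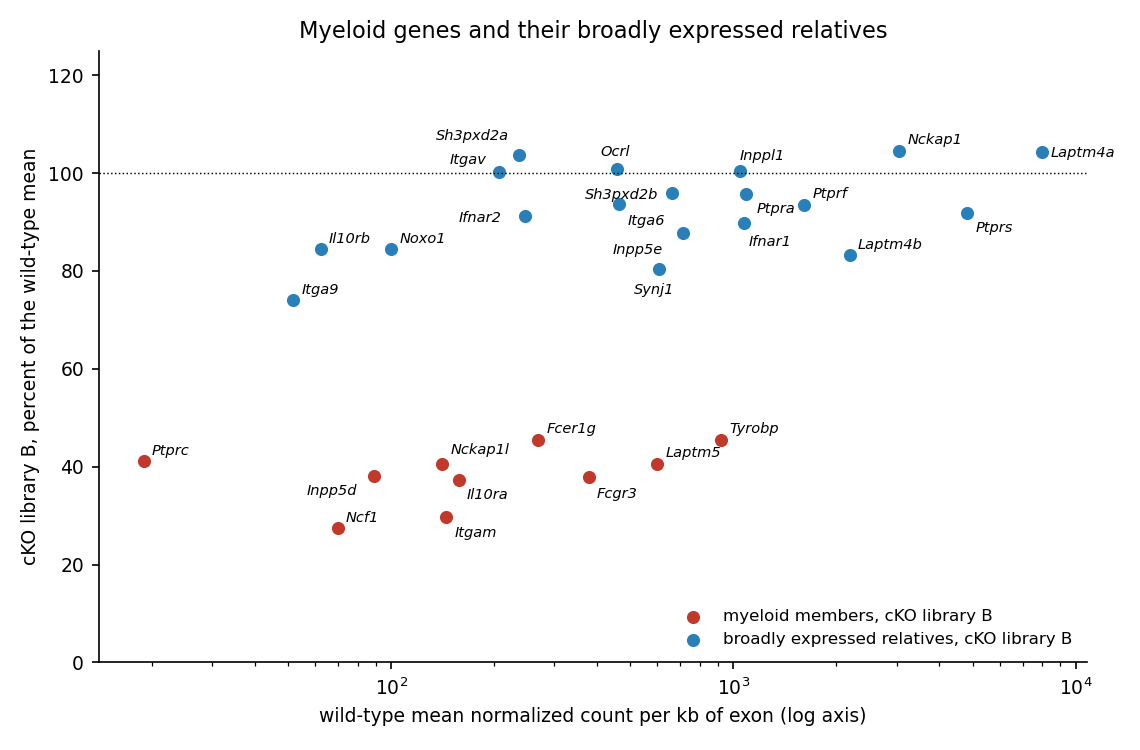
Level in cKO library B as a percent of the wild-type mean, against the wild-type mean per kilobase of exon (log axis), for the 10 members (red) and 19 broadly expressed relatives of 7 of them (blue), with 1 point per gene. The members lie between 27.4% and 45.5% and the relatives between 74.1% and 105%, and the 2 sets overlap in wild-type level.

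The genes with patterns most like the members were found by the root mean square distance between centred log2 profiles over the 4 libraries, among 12351 other genes with a mean of at least 50. P2ry12, the purine receptor by which microglia sense injury and one of the microglia markers, was nearest at 0.0618, with 14 and 430 normalized counts in cKO libraries A and B, against 1042 and 1048 in wild-type libraries A and B. Kcnk6, Neurl3, Rcsd1, Eng, Phyhd1, Mroh3 and Apbb1ip followed, out to 0.187, and stood at 29.4% to 50.6% of the wild-type mean in cKO library B. The members lay 0.290 to 1.5 from their own mean profile, so a small distance over 4 libraries is a description of likeness only.

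Leaving out single libraries changed the size of the members' values. It could not change a direction, because both cKO values of each member lie under both wild-type values. The median log2 fold change of the 10, of which 4 rest on a 0 in cKO library A, was −3.87 with all libraries, −1.35 without cKO library A, −6.34 without its partner, cKO library B, and −3.90 and −3.84 without wild-type library A or B. Without cKO library A the members had log2 fold changes of −1.84 to −1.09. Over all genes limma then called 76 instead of 0, and without cKO library B it called 5662, in fits where the lone cKO library is assumed to vary like the wild-type libraries.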

How the data were processed

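mRNA-enriched RNA of 4N cells sorted from retina at postnatal day 2 was sequenced as 4 libraries, 2 per group. The submitters' processing notes name TopHat, HTSeq, DESeq and FastQC and build mm10; the sources used here give no versions, annotation release or strand setting of the counting. The deposited signal per gene and library is the read count divided by one size factor, per the file headers and the values: 100% of values were whole multiples of 1 read within 0.01 reads, so reads were recovered. The p-value column used is the authors' deposited adjusted p. The columns carry tags, written A and B; both cKO columns are headed with the same replicate number, so they were assigned to a group and not to a numbered sample. All per-sample columns were used.

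The 14480 genes averaging 10 or more normalized counts were fitted as log2(normalized count + 1) with limma 3.58.1 (mean-dependent prior, two-sided, Benjamini-Hochberg at 0.05) in R 4.3.3. A difference on this scale understates the change of low genes, and a 0 in one library can inflate it. edgeR 4.0.16 and DESeq2 1.42.0 on the recovered reads, other pseudocounts (0.5 and 5), no filter or a mean of at least 50, rescaling, a replicate block and leaving out each library were alternatives. Libraries of a group differed by a chi-square of 126 per degree of freedom in cKO and 74.1 in wild type, more than sampling noise. Positions and exon lengths come from GENCODE M21, where 21798 of 22690 identifiers matched (96.1%).

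The members and all lists were chosen with earlier results of these data known, so no p of these fits is given for members and no list was tested as a set. Besides the members, the genes named are up to 4 per pathway list (those that pass, otherwise the highest means), all relatives, up to 3 per marker list, the 8 nearest patterns and Casz1; others are said to be chosen after their values were seen or for a stated role. Some genes that this rule takes are not reported here.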

Additional observations from a re-analysis of the deposited data

How the results depend on the processing

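The members' fold changes were recomputed with other pseudocounts, rescaling, a replicate block and single libraries left out, not with edgeR or DESeq2. Both cKO values of each of the 10 members lie under both wild-type values. Other pseudocounts, the block and leaving out a library could therefore not reverse a sign, and only sizes are read from them. The median log2 fold change was −3.95 and −3.34 with pseudocounts of 0.5 and 5, and −3.87 after median rescaling. It was −3.86 with TMM factors, and −6.34 to −1.35 when single libraries were left out. The number of genes called by limma over all genes was 0 with all libraries and ranged from 0 to 5662 when single libraries were left out, and that of the pathway list genes from 0 to 74. Without cKO library A these counts were 76 and 8, and without cKO library B 5662 and 74; the fits with a lone cKO library assume that it varies like wild type, and the cause was not tested. DESeq2 called 2 genes. The replicate block called 0 genes, and its median for the members was −3.87. The tags share only a number: deviations of libraries with the same tag correlated at r = 0.26, on 1 relation only, as the 2 groups of 2 give. With longest transcripts wild-type levels per kb moved by more than the SD of the wild-type libraries for 6 members, in ratio by most for Ptprc, 18.9 with joined exons and 60.3 with the longest transcript. With 22326119 reads, cKO library A sets the depth limit: 4 members at 0 there are bounded only by 3 reads.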

Other observations

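Some values of related genes, picked after they were seen, differ from the 10 members. Olfml3, a secreted protein on the microglia list, had 623 and 415 normalized counts in cKO libraries A and B, against 761 and 652 in wild-type libraries A and B, so it stood at 88.2% of the wild-type mean in cKO library A and at 58.7% in cKO library B. No member stood higher in cKO library A than in cKO library B. Mrc1, the mannose receptor of border macrophages, had 0 and 1.98 normalized counts in cKO, against 47.8 and 37.3 in wild type, or 4.66% of the wild-type mean in cKO library B. Cd79b, a chain of the B cell receptor complex, had 0 and 2.64 in cKO, against 34.9 and 17.9 in wild type. Cd4, which lymphocytes and some macrophages carry, had 22.4 and 147 in cKO, against 138 and 186 in wild type, and so overlapped between the groups. These differences from the members were not tested.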
